A study of Mus musculus with 6 samples.

Results

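Ribosome biogenesis and nucleolar genes were followed as a set of 40 genes, named by symbol and read from the table of 26469 gene rows. All 40 symbols were present, and all 40 were among the 18323 genes that passed the filter on low counts, with at least 580 counts in every library. They were divided by known role into 16 genes of the small subunit processome and small subunit maturation, 11 genes of large subunit assembly, 8 genes of the small nucleolar ribonucleoproteins (snoRNPs), 2 catalytic subunits of RNA polymerase I and 3 abundant nucleolar proteins. The set was not chosen from its values in these libraries, although earlier results of the same data were known when it was drawn up.

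The study asked how the cancer-associated K700E change of Sf3b1, a core splicing factor, affects regulatory T cell (Treg) differentiation. RNA was sequenced from CD4+ T cells of mouse spleen, 3 libraries per group. Control libraries came from Sf3b1K700E/fl mice without Cd4Cre, annotated WT, and mutant libraries from Sf3b1K700E/fl /Cd4Cre mice, annotated Sf3b1 mutation. Both groups therefore carried the conditional allele, and Cd4-driven Cre, which is active in T cells from their thymic stage on, distinguished them. Sorted naive cells of both groups were cultured for 36 h with TGFβ at 5 ng/ml under stimulation of the T cell receptor and its co-receptor (hamster anti-CD3 and anti-CD28), while IL-4 and IFNγ were neutralised. No source used here gives the strain or age of the mice or says whether each library came from a separate animal. The p-values therefore weigh the difference between the groups against the spread between these libraries, which may be technical in part.

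Ribosomes are built in the nucleolus. RNA polymerase I transcribes the ribosomal RNA precursor, snoRNPs guide its chemical modification, the small subunit processome folds and cleaves the part that becomes the small subunit, and separate assembly factors mature the large subunit before both are exported. In T cells this machinery is known to be induced after antigen receptor stimulation, when a small resting cell enlarges and prepares to divide, and MYC is a known activator of many of its genes.

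Library totals ran from 33633196 to 43928723 estimated counts, the highest being control 2. Transcripts of the 40 genes took 0.957%, 1.06% and 0.972% of all counts in control 1, 2 and 3 and 0.542%, 0.815% and 1.19% in mutant 1, 2 and 3. Control 1 was the only library with the X-inactivation transcript Xist (3475 CPM, counts scaled to a common library total, against at most 0.661 CPM elsewhere) and had at most 0.029 CPM of the Y-linked genes Ddx3y, Kdm5d, Uty and Eif2s3y, so it differed in sex from the other 5. All 8 markers of the labelled cell type, CD4 T cells, passed the filter, with a summed level of 1737 to 2414 CPM in the controls and 2014 to 2916 CPM in the mutants. Summed markers of other cells were low, at 5.81 to 40.4 CPM and 6.56 to 17.3 CPM for CD8 T cells (2 genes) and at 2.63 to 6.50 CPM and 4.01 to 45.2 CPM for B cells (6 genes). They were at 1.33 to 3.05 and 1.59 to 4.01 CPM for myeloid cells (6 genes), 1.30 to 3.16 and 1.33 to 6.06 CPM for NK cells (3 of 4 genes found), and 0.165 to 0.933 and 0.396 to 1.25 CPM for erythroid cells (5 genes). The B cell sum was highest in mutant 2 (45.2 CPM) and next in mutant 3 (9.78 CPM), and it was 4.01 CPM in mutant 1. Small structural RNAs took at least 2.36% of counts in each control library and 1.69%, 2.46% and 1.55% in mutant 1, 2 and 3. With mitochondrial and small structural RNA genes left out of the fit, 38 of the 40 genes still had a lower mean in mutant libraries and 0 were called. The part of the marker levels in the results was not tested.

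The 40 genes stood low in mutant 1, somewhat low in mutant 2 and at or above the control level in mutant 3, and no gene passed the test between the groups. Mutant 1 had the lowest level of all 6 libraries for 40 of 40 genes, which held for 29.2% of all genes tested. The mutant libraries followed the order mutant 1, mutant 2, mutant 3 from low to high in 39 of 40 genes, against 24.1% of all genes; Nop10 was the exception. Mutant 2 lay below the control mean in 38 of 40 genes (51.9% of all genes) and below all 3 controls in 34 (27.3%). Mutant 3 lay above the control mean in 37 of 40 (48.1%) and above all 3 controls in 28 (23.9%). Among the controls, control 2 was the highest library for 39 of 40 genes (41.2% of all genes). In bulk RNA, fewer cells of a type and less RNA per cell cannot be told apart, and CPM values are relative to the other RNA of the same library.

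**Figure D1:**
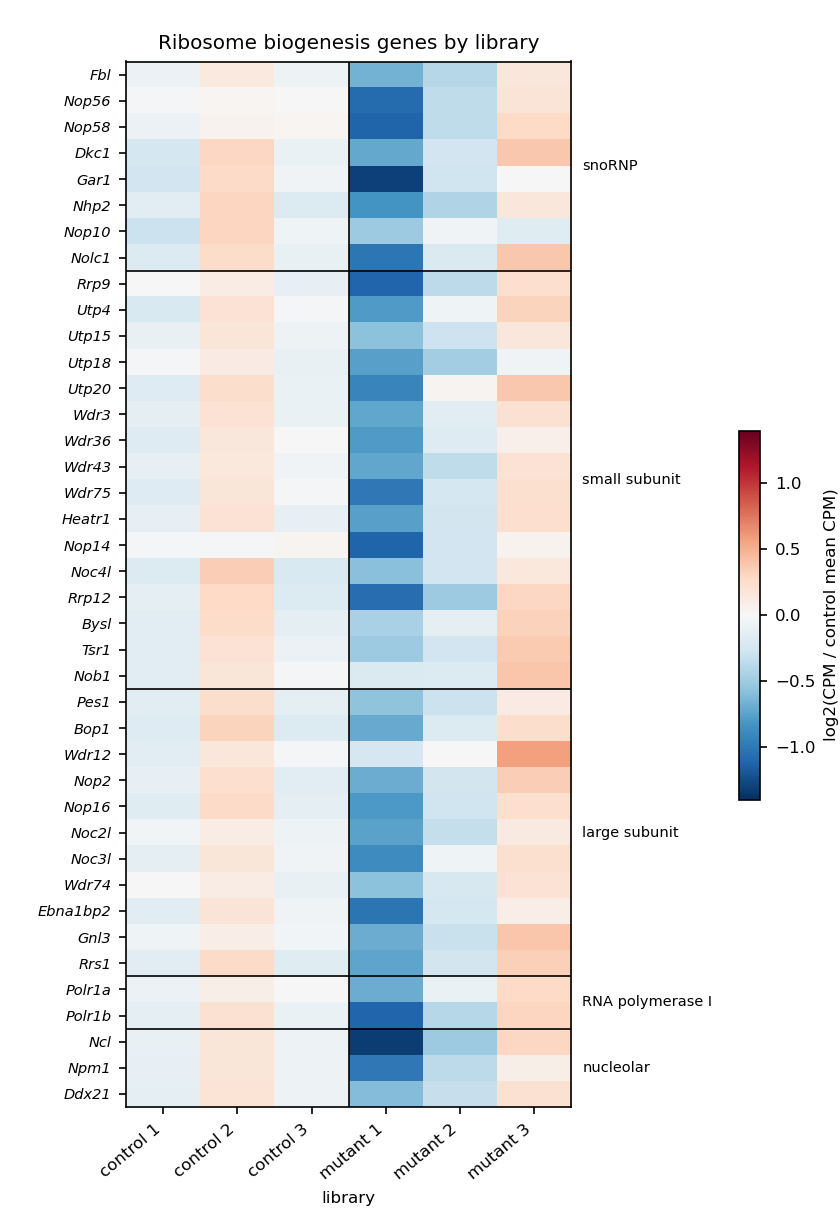
Level of each of the 40 genes (rows, grouped by role) in each of the 6 libraries (columns), as log2 of CPM over the control mean CPM; red is above and blue below the control mean. The mutant 1 column is blue in all 40 rows, mutant 2 is mostly pale blue and mutant 3 mostly pale red.

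By edgeR's quasi-likelihood test 0 of the 40 genes passed an adjusted p of 0.05, where 0% of all genes tested did. The adjusted p of the 40 genes ran from 0.685 to 0.977, and 0 of them had an unadjusted p under 0.05 (7.62% of all genes did). DESeq2 called 0 of the 40 (0.64% of the genes to which it gave an adjusted p) and limma-voom 0 of the 40 (0% of all genes). The mean was lower in mutant than in control libraries for 38 of 40 genes (47.1% of all genes), and the median log2 fold change, mutant minus control, was -0.21 against 0.024 over all genes tested. In 0 of the 40 were all mutant libraries below all controls (7.48% of all genes) or above them (6.6%). The 95% interval of the log2 fold change held 0 for each of the 40 genes. The intervals reached from -1.20 to 0.66, with a median width of 1.20. With 3 libraries per group, the data of a gene were compatible at that level with any value inside its own interval, 0 included. Without mutant 1 the 40 genes divided into 19 lower (47.9% of all genes in that fit) and 21 higher, with a median of 0.0074; without mutant 3 all 40 were lower (47.2% of all genes), with a median of -0.49. In the fit without mutant 3, 18 of the 40 had an unadjusted p under 0.05 in edgeR, all lower (5.21% of all genes were lower at that p), and 0 passed after adjustment.

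The spread lay among the mutant libraries. The standard deviation of log2 CPM was larger among mutant than among control libraries in 39 of 40 genes (65.3% of all genes), with a median of 0.51 against 0.17; over all genes tested the medians were 0.33 and 0.21. Relative to the control mean, the median log2 level of the 40 genes was -0.75 in mutant 1, -0.25 in mutant 2 and 0.23 in mutant 3, while the medians over all genes tested were 0.024, 0.0083 and 0.0076. All 40 were negative in mutant 1, from -1.32 for Ncl to -0.20 for Nob1. From mutant 1 to mutant 3 the CPM differed by 1.27-fold for Nop10 to 3.06-fold for Ncl, with a median of 2.03-fold.

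**Figure D2:**
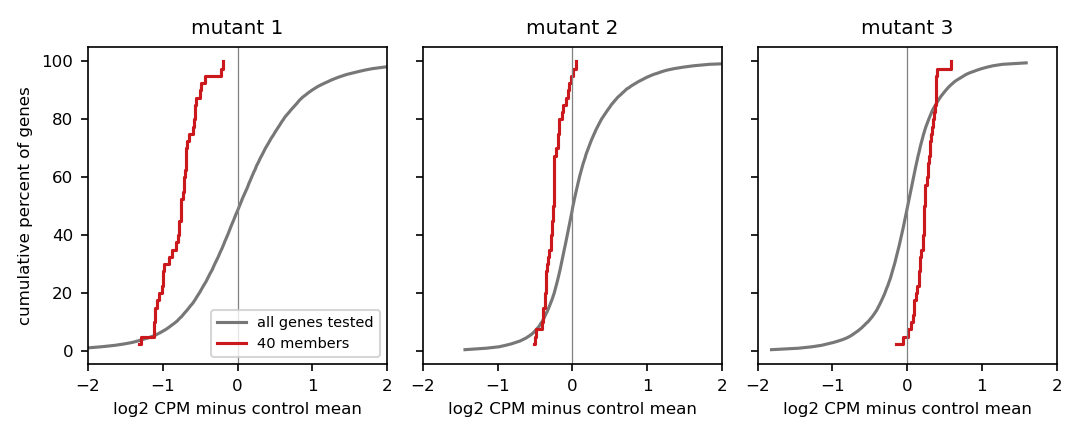
Cumulative percent of genes (y axis) against the log2 CPM minus the control mean (x axis), for the 40 genes (red steps) and all genes tested (grey line), in each mutant library. The red steps lie left of the grey line through most of the range in mutant 1 and mutant 2 and mostly right of 0 in mutant 3, with medians of -0.75, -0.25 and 0.23.

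SnoRNPs come in 2 kinds. Box C/D particles hold the methyltransferase Fbl (fibrillarin) with Nop56 and Nop58, and box H/ACA particles hold the pseudouridine synthase Dkc1 (dyskerin) with Gar1, Nhp2 and Nop10. Nop56 (ENSMUSG00000027405), a scaffold of the box C/D particle, was at 509, 529 and 516 CPM in control 1, 2 and 3 and at 246, 405 and 586 CPM in mutant 1, 2 and 3. The 3 controls lay close together, and the mutant libraries lay on both sides of them. The means were 518 ± 10.3 and 412 ± 170 CPM (SD, n = 3), with a log2 fold change of -0.33 ± 0.28 (SE; adjusted p = 0.789 in edgeR). Fbl (ENSMUSG00000046865) was at 50.1, 58.4 and 50.3 CPM in the controls and 33.6, 40.2 and 58.9 CPM in the mutants. Mutant 1 and 2 were below and mutant 3 slightly above every control, and the log2 fold change was -0.26 ± 0.22 (adjusted p = 0.785).

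Gar1 (ENSMUSG00000028010), a core protein of the H/ACA particle, was at 50.4, 72.6 and 58.5 CPM in the controls and 24.5, 50.0 and 60.2 CPM in the mutants. Its log2 fold change of -0.43 ± 0.31 (SE, 95% bounds -1.16 and 0.30; adjusted p = 0.757) was the most negative of the 40, and mutant 3 lay within the control range. The level of Nop10, the smallest H/ACA protein, was highest in mutant 2 among the mutants, at 36.0, 49.6 and 45.6 CPM in mutant 1, 2 and 3 against 41.4, 63.0 and 49.1 CPM in control. Dkc1, which is X-linked, was at 215 CPM in the Xist-positive control 1 and at 310 and 238 CPM in control 2 and 3, and at 155, 212 and 331 CPM in mutant 1, 2 and 3. The remaining members, Nop58, Nhp2 and the snoRNP chaperone Nolc1, kept the order mutant 1, 2, 3, and Nop58 ran from 137 to 360 CPM among mutant libraries against 281 to 308 CPM in control. All 8 snoRNP genes had a lower mean in mutant libraries, with a median log2 fold change of -0.27. Without mutant 1, 5 were lower and 3 higher and the median was -0.065; without mutant 3 the median was -0.59.

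The small subunit processome assembles on the ribosomal RNA precursor while it is still being transcribed. Its members here are the UTP proteins (Utp4, Utp15, Utp18, Utp20, Heatr1), WD-repeat proteins of the same complexes (Wdr3, Wdr36, Wdr43, Wdr75), the snoRNP-bound Rrp9, and Nop14 and Noc4l, which form a complex; Bysl, Tsr1, Rrp12 and Nob1 act in later maturation. Utp18 (ENSMUSG00000054079) had the smallest p of the 40 genes. It was at 87.3, 96.2 and 82.4 CPM in the controls and 52.3, 63.3 and 85.6 CPM in the mutants. Mutant 1 and 2 were below every control and mutant 3 was inside their range. The means were 88.7 ± 6.97 and 67.1 ± 16.9 CPM (SD, n = 3), and the log2 fold change was -0.40 ± 0.19 (SE, 95% bounds -0.85 and 0.048) with an adjusted p = 0.685 in edgeR.

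Nop14 (ENSMUSG00000036693) was at 105, 106 and 110 CPM in the controls and 49.0, 88.5 and 111 CPM in the mutants. The controls lay close together, and mutant 1 was below each of them while mutant 3 was just above them. Its log2 fold change was -0.37 ± 0.27 (SE; adjusted p = 0.757). Wdr36 (ENSMUSG00000038299) was at 132, 166 and 150 CPM in the controls and 86.0, 132 and 157 CPM in the mutants, with a log2 fold change of -0.26 ± 0.22 (adjusted p = 0.792). Mutant 2 and control 1 were level for Wdr36, and mutant 3 lay between control 2 and control 3.

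Nob1 (ENSMUSG00000003848), the nuclease that makes the final cleavage of the small subunit RNA, was at 56.0, 70.0 and 61.1 CPM in the controls and 54.1, 54.6 and 81.4 CPM in the mutants. Mutant 1 and 2 were nearly equal for Nob1 and just below the controls, and mutant 3 was above them; the log2 fold change was 0.023 ± 0.20 (SE; adjusted p = 0.977). Nob1 had the smallest difference of the 40 between mutant 1 and the control mean and was named after its values were seen. Of the 16 small subunit genes 15 had a lower mean in mutant libraries, with a median log2 fold change of -0.21. Without mutant 1, 8 were lower and 8 higher and the median was -0.0022; without mutant 3 it was -0.44.

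Large subunit assembly is represented by the Pes1, Bop1 and Wdr12 complex, which is needed for processing of the large subunit RNA, the NOC proteins Noc2l and Noc3l, the RNA methyltransferase Nop2, the GTPase Gnl3 (nucleostemin), and Ebna1bp2, Rrs1, Nop16 and Wdr74. Noc2l (ENSMUSG00000095567) was at 245, 272 and 240 CPM in the controls and 150, 200 and 275 CPM in the mutants. Mutant 1 and 2 were below every control and mutant 3 just above. Its log2 fold change was -0.28 ± 0.22 (SE; adjusted p = 0.773 in edgeR). Ebna1bp2 (ENSMUSG00000028729) was at 98.2, 123 and 105 CPM in the controls and 53.5, 91.4 and 116 CPM in the mutants, with a log2 fold change of -0.32 ± 0.27 (adjusted p = 0.783). Mutant 3 lay inside the control range of Ebna1bp2.

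Pes1 (ENSMUSG00000020430) was at 105, 139 and 108 CPM in the controls and 79.4, 95.2 and 127 CPM in the mutants, with a log2 fold change of -0.22 ± 0.21 (SE; adjusted p = 0.799 in edgeR). Wdr12 (ENSMUSG00000026019) was at 85.4, 105 and 92.7 CPM in the controls and 80.3, 94.9 and 141 CPM in the mutants. Only Wdr12 and Nob1 of the 40 had a higher mean in mutant libraries; they were named after their values were seen. For Wdr12 the means were 94.4 ± 9.93 and 105 ± 31.6 CPM (SD, n = 3), the log2 fold change was 0.16 ± 0.22 (adjusted p = 0.860), and mutant 3 was above every control. In mutant 1 the log2 level relative to the control mean was -0.55 for Pes1, -0.69 for Bop1 and -0.23 for Wdr12. Of the 11 large subunit genes 10 had a lower mean in mutant libraries, with a median log2 fold change of -0.17. Without mutant 1, 3 were lower and 8 higher and the median was 0.059; without mutant 3 it was -0.46.

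Polr1a and Polr1b encode the largest subunits of RNA polymerase I, which together form its active site. Polr1a (ENSMUSG00000049553) was at 165, 184 and 174 CPM in the controls and 108, 164 and 212 CPM in the mutants. Polr1b (ENSMUSG00000027395) was at 104, 133 and 107 CPM in the controls and 53.2, 87.2 and 141 CPM in the mutants. For both genes mutant 1 and 2 were below and mutant 3 above every control. The log2 fold changes were -0.11 ± 0.23 for Polr1a (SE; adjusted p = 0.904 in edgeR) and -0.29 ± 0.32 for Polr1b (adjusted p = 0.825). Without mutant 1 they were 0.12 and 0.0065.

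Of the 3 abundant nucleolar proteins, Ncl differed most between mutant libraries, by 3.06-fold from mutant 1 to mutant 3, with 2.11-fold for Npm1 and 1.76-fold for Ddx21. Ncl (ENSMUSG00000026234), nucleolin, an RNA-binding protein of ribosomal RNA transcription and processing, was at 2546, 3072 and 2599 CPM in the controls and 1090, 1918 and 3338 CPM in the mutants. Mutant 1 and 2 were below and mutant 3 above every control. The log2 fold change was -0.37 ± 0.36 (SE, 95% bounds -1.20 and 0.45; adjusted p = 0.803 in edgeR), -0.045 without mutant 1 and -0.87 without mutant 3. Npm1 (ENSMUSG00000057113), nucleophosmin, a chaperone of the outer nucleolus, was at 1309, 1583 and 1347 CPM in the controls and 708, 1095 and 1494 CPM in the mutants, with mutant 3 inside the control range. Its log2 fold change was -0.36 ± 0.26 (adjusted p = 0.757). Npm1 has processed pseudogenes, and no source used here says how reads shared with them were assigned, or whether strand was used in counting. Ddx21 (ENSMUSG00000020075), an RNA helicase, was at 633, 790 and 658 CPM in the controls and 457, 553 and 805 CPM in the mutants, with a log2 fold change of -0.20 ± 0.22 (adjusted p = 0.829) and mutant 3 just above the controls.

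**Figure D3:**
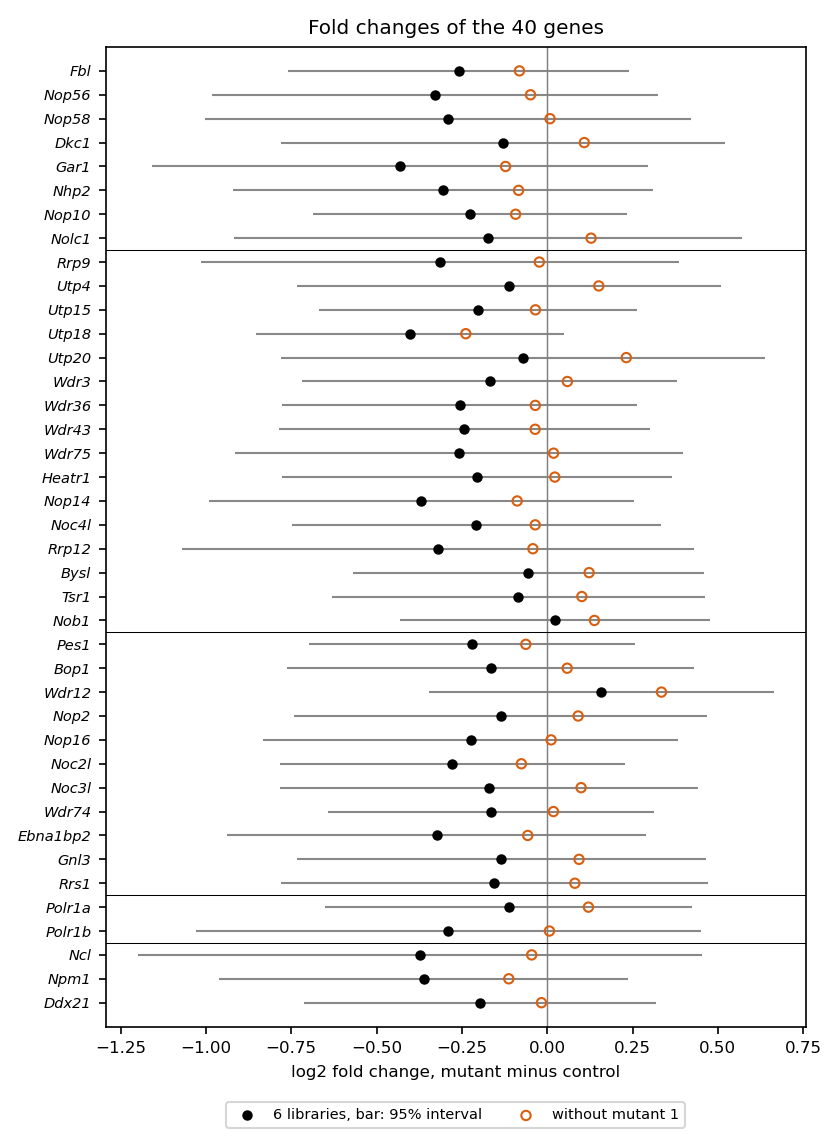
Log2 fold change, mutant minus control (x axis), of the 40 genes grouped by role: filled points with 95% intervals are from 6 libraries and open orange circles are without mutant 1. All 40 intervals cross 0, and without mutant 1 the values lie between -0.24 for Utp18 and 0.33 for Wdr12.

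The mutant libraries had the same order, 1, 2, 3 from low to high, in all 5 role classes. The level of a class in a library, the mean log2 CPM of its genes minus the control mean, was -0.89 for snoRNP, -0.75 for small subunit, -0.69 for large subunit, -0.89 for RNA polymerase I and -0.97 for nucleolar genes in mutant 1. In mutant 2 the same levels were -0.28, -0.24, -0.22, -0.24 and -0.40, and in mutant 3 they were 0.18, 0.23, 0.27, 0.29 and 0.20. Control libraries ran from -0.16 to 0.21 over all 5 classes. In each class, mutant 1 and mutant 2 therefore lay below all 3 controls, and mutant 3 lay above control 1 and 3. In any 1 mutant library the 5 classes differed from each other by less than mutant 1 differed from mutant 3. Whether the classes differ from each other was not tested.

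**Figure D4:**
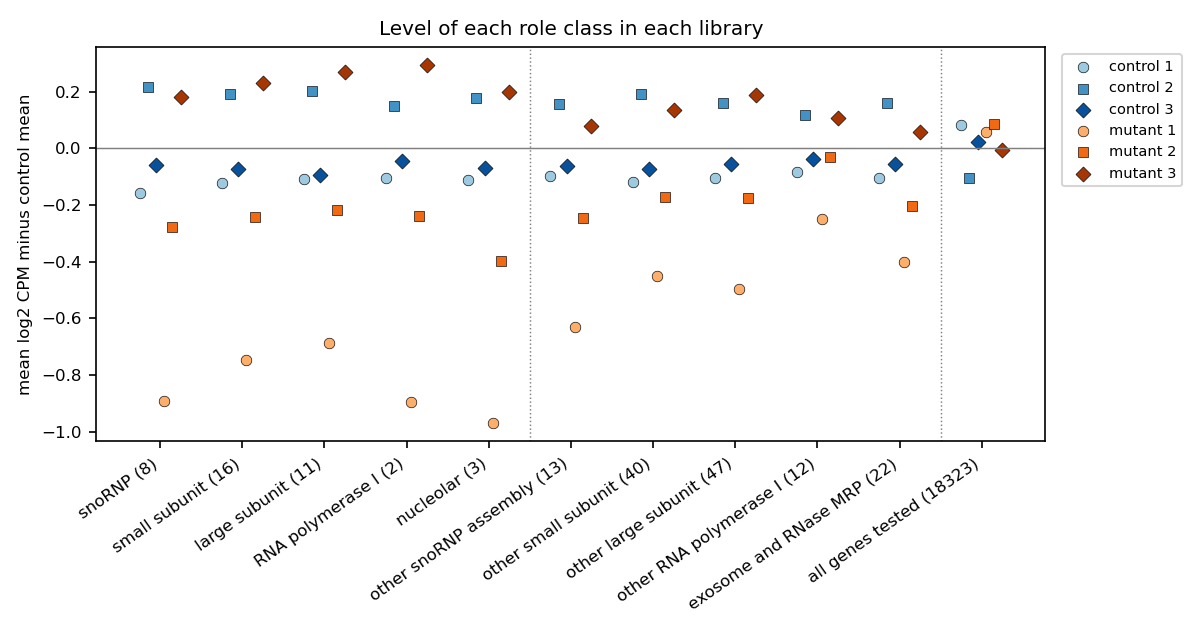
Mean log2 CPM of each role class minus its control mean (y axis) in each of the 6 libraries (points; number of genes in brackets): left, the 5 classes of the 40 genes; middle, 5 lists of other genes of the pathway; right, all genes tested. Mutant 1 is lowest in each of the 10 pathway lists, from -0.97 for nucleolar genes to -0.25 for other RNA polymerase I genes, and the 6 libraries lie between -0.10 and 0.087 for all genes tested.

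The other genes of the pathway, 135 genes in 5 lists of which 134 were found and tested, had a level of -0.46, -0.17 and 0.13 in mutant 1, 2 and 3 (mean log2 CPM minus the control mean), against -0.78, -0.25 and 0.23 for the 40 genes. Control 2, at 0.17, was above mutant 3 for these other genes. Of the 134, 112 had a lower mean in mutant libraries (47.1% of all genes) and 22 a higher mean, with a median log2 fold change of -0.14. By edgeR's test 0 passed after adjustment, and 2 had an unadjusted p under 0.05, both lower (3.48% of all genes). In 9 of the 134 all mutant libraries lay below all controls (7.48% of all genes) and in 1, Taf1c, above (6.6%). Mutant 1 was the lowest library in 100 of the 134 (29.2% of all genes) and the mutant order 1, 2, 3 held in 102 (24.1%). The level in mutant 1 was -0.45 for other small subunit, -0.50 for other large subunit, -0.63 for other snoRNP assembly, -0.25 for other RNA polymerase I and -0.40 for exosome and RNase MRP genes. Below, values by library are given for the 2 genes of each list with the smallest p in edgeR, which do not stand for their list.

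Of the other small subunit genes 36 of 40 had a lower mean (47.1% of all genes), and in 6 all mutant libraries lay below all controls (Utp3, Utp11, Riok1, Aatf, Tsr3 and Ngdn; 7.48% of all genes). Aatf, a protein of the processome, was at 53.9, 58.2 and 54.9 CPM in the controls and 29.6, 41.2 and 52.6 CPM in the mutants, with a log2 fold change of -0.44 ± 0.21 (SE; adjusted p = 0.683 in edgeR). Utp11 was at 75.5, 82.5 and 85.5 CPM in the controls and 46.0, 68.5 and 72.0 CPM in the mutants (log2 fold change -0.39 ± 0.19). For both genes even mutant 3, the highest mutant library, was just below the lowest control. Of the other large subunit genes 40 of 47 had a lower mean. Among them the helicase gene Ddx56 was at 69.1, 89.7 and 74.3 CPM in the controls and 44.7, 47.6 and 71.5 CPM in the mutants (-0.51 ± 0.21, adjusted p = 0.645), and the GTPase gene Gnl2 was at 99.6, 112 and 110 CPM and 63.6, 86.8 and 104 CPM (-0.34 ± 0.19).

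Of the other snoRNP assembly genes 11 of 13 had a lower mean (47.1% of all genes). The assembly ATPase gene Ruvbl2 was at 75.0, 81.5 and 72.4 CPM in the controls and 34.8, 57.7 and 75.3 CPM in the mutants, and the assembly factor gene Nufip1 at 36.0, 44.6 and 39.2 CPM and 25.9, 33.6 and 38.9 CPM. The other RNA polymerase I genes were divided, 7 lower and 5 higher of 12. The polymerase subunit gene Polr1f was at 83.4, 77.2 and 83.9 CPM in the controls and 57.9, 63.5 and 77.3 CPM in the mutants, and Taf1c, of the promoter selectivity factor, at 12.4, 13.6 and 11.7 CPM and 16.5, 14.1 and 14.9 CPM. Of the exosome and RNase MRP genes, which trim and cut ribosomal RNA precursors, 18 of 22 had a lower mean. Rpp40 was at 10.7, 10.6 and 13.0 CPM in the controls and 5.28, 7.96 and 9.45 CPM in the mutants. Exosc9 was at 65.5, 78.6 and 66.6 CPM in the controls and 46.8, 59.6 and 63.8 CPM in the mutants. These were the 2 of the 22 genes (9.09%) in which all mutant libraries lay below all controls, against 7.48% of all genes.

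RefSeq promoter sequences (build GRCm38.p6, 250 bases before to 50 after the start of a gene) were matched by symbol to 34 of the 40 genes; Fbl, Wdr36, Rrp12, Bop1, Rrs1 and Npm1 had no entry. These promoters were searched for short motifs, among them sites of factors linked to growth genes. The E-box CACGTG, the site that MYC with MAX can bind and that reads the same on both strands, was found in 7 of 34 (20.6%), against 8.09% of all genes with a promoter and 11.6% of those tested here. The E-box sites and their surroundings are shown 5′ to 3′ on the strand of the gene, with the E-box in capitals. Sites of the other motifs searched are given as counts only.

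Utp18: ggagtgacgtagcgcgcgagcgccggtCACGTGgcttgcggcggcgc

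Nop2: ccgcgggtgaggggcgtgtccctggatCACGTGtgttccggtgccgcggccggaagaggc

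Utp4: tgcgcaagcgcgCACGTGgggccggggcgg

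Pes1: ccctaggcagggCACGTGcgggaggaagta

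Tsr1: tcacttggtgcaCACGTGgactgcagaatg

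Wdr43: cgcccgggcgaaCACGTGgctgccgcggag

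Utp20: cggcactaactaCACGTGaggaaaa

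The E-box begins 20 bases before the annotated start in Utp18 (chr11:93885767-93885813, minus strand) and 60 bases before it in Nop2 (chr6:125131796-125131855, plus strand). In the other 5 it lies within 50 bases after the start, in Utp4 (chr8:106893643-106893672, plus), Pes1 (chr11:3963965-3963994, plus), Tsr1 (chr11:74898092-74898121, plus), Wdr43 (chr17:71616220-71616249, plus) and Utp20 (chr10:88826765-88826789, minus). The variant CACGCG, searched on both strands, was found in 9 of 34 promoters (26.5%; 10.5% of all genes and 19.4% of those tested), and the ETS-type site CCGGAAGT in 9 of 34 (26.5%; 4.31% and 9.03%). The palindromic NRF1 site was in 0 of 34 (1.07% and 2.27%) and TATAAA in 2 of 34, Dkc1 and Pes1 (5.88%; 15.7% and 8.99%). The E-box letters cannot overlap with those of CACGCG, CCGGAAGT or TATAAA; Pes1 held the E-box, CACGCG and TATAAA, and Utp4 and Tsr1 held the E-box and CCGGAAGT. The median log2 level relative to the control mean in mutant 1, 2 and 3 was -0.73, -0.26 and 0.32 for the 7 genes with an E-box. For the 27 without it the medians were -0.76, -0.25 and 0.23. The order of the mutant libraries held in 39 of the 40 genes, so medians of nearly any part of them follow it. The part of the motifs in that order was not tested. For the 9 genes with CCGGAAGT the medians were -0.76, -0.25 and 0.21, and for the 25 without it -0.73, -0.27 and 0.24. A match is a description of the sequence and does not show binding.

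By the GENCODE annotation of the same older build, 7 of the 40 genes (Dkc1, Gnl3, Ncl, Nop56, Nop58, Tsr1 and Wdr43) contain 21 snoRNA genes on their own strand, a common arrangement in which guide RNAs are released from the spliced host transcript. By gene ID only 1 of them, Gm24451 inside Nop56, was among the gene rows, with at most 2 counts in any library. The levels of these snoRNAs were not analysed here.

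Genes of T cell state also set mutant 1 apart. In that library 10 genes of naive T cells stood 1.42 above the control mean on the log2 scale, against 0.11 in mutant 2, -0.33 in mutant 3 and -0.17 to 0.14 in control libraries. Of the 10, 9 had a higher and 1 a lower mean in mutant libraries (47.1% of all genes were lower). Among them 0 were without overlap (7.48% of all genes lower and 6.6% higher). The 10 genes of activated T cells stood at -0.79 in mutant 1, 0.022 in mutant 2, -0.074 in mutant 3 and between -0.046 and 0.057 in control libraries. Of these 10, 9 had a lower mean (47.1% of all genes) and 3 (Tfrc, Irf4 and Myc) lay below all controls in all mutant libraries (7.48%), and 0 of either list passed edgeR's test after adjustment. Tfrc, the transferrin receptor, was at 1393, 1565 and 1389 CPM in the controls and 662, 1105 and 1245 CPM in the mutants. Foxp3, the defining transcription factor of Tregs, was at 119, 139 and 108 CPM in the controls and 230, 118 and 52.3 CPM in the mutants, the reverse of the order of the 40 genes in the mutant libraries. The part of T cell state in the ribosome biogenesis levels was not tested.

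Myc (ENSMUSG00000022346) was at 307, 285 and 309 CPM in the controls and 252, 226 and 281 CPM in the mutants. All mutant libraries were below all controls (7.48% of all genes), with a log2 fold change of -0.25 ± 0.14 (SE; adjusted p = 0.714 in edgeR). The lowest Myc level was in mutant 2, and the lowest control was control 2. The part of Myc in the levels of the 40 genes was not tested. Sf3b1 (ENSMUSG00000025982) was at 632, 712 and 638 CPM in the controls and 649, 593 and 639 CPM in the mutants, with overlap of the groups; counts per gene do not show the allele.

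**Figure D5:**
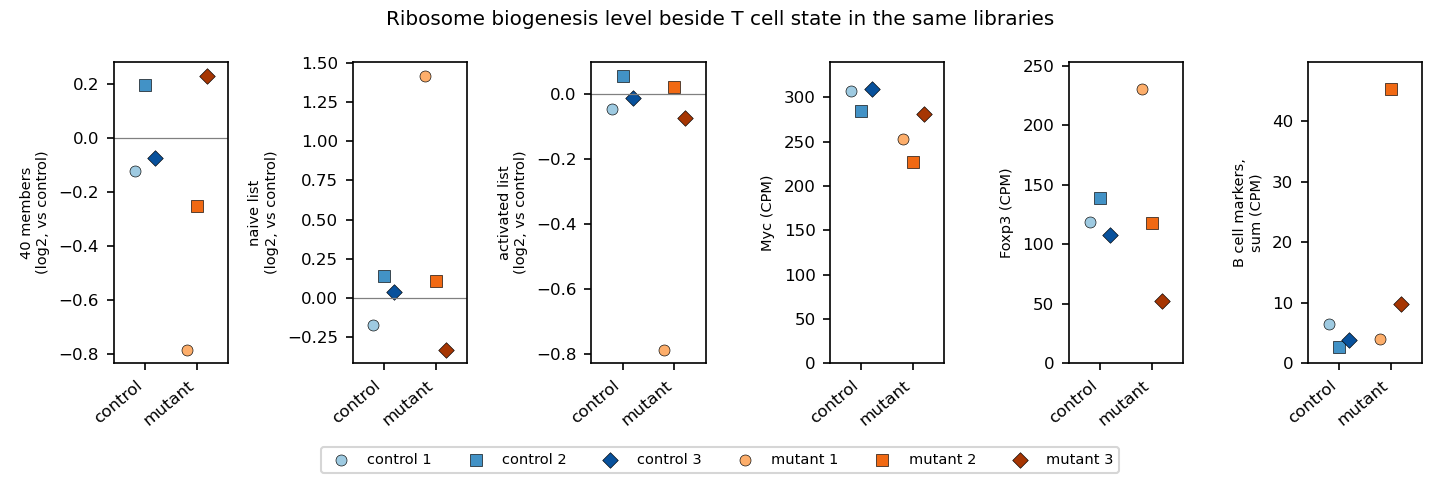
Values of the 6 libraries (points) by group: the level of the 40 genes and of the naive and activated T cell lists (mean log2 CPM minus the control mean), Myc and Foxp3 in CPM, and the sum of 6 B cell markers in CPM. Mutant 1 is lowest for the 40 genes (-0.78) and the activated list (-0.79) and highest for the naive list (1.42) and Foxp3 (230 CPM), while mutant 2 is lowest for Myc (226 CPM).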

How the data were processed

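The authors deposited estimated counts per gene, not normalized, in 1 column per library; 57.8% of the values are whole. Per the submitters' processing notes, GRCm39, mm39, STAR 2.7.8a and Partek were used; no source used here gives their roles, the annotation or the strand setting. Per the labels' protocols, 1 µg of total RNA per library entered a kit that depletes ribosomal RNA. Counts were rounded to whole numbers. Genes were filtered with filterByExpr (minimum count 10), scaled by TMM and tested on 6 libraries without covariates by edgeR's quasi-likelihood test (edgeR 4.0.16, R 4.3.3), two-sided, with Benjamini-Hochberg adjustment over 18323 genes and a threshold of 0.05. Log2 CPM used a prior count of 2. The SE is the log2 fold change over the square root of F, and 95% intervals use residual plus prior degrees of freedom. Repeated symbols (32 rows) and rows with none (863) were named by ID. The procedure was tested on simulated data.

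The 40 members, their roles and the lists were chosen with earlier results of these data known. Values by library are given for the 3 genes of each role class with the smallest p and any without overlap. In each other list they are given for the 2 genes with the smallest p. Other genes were named after their values were seen. Lists are described by counts and medians, without a list test. Alternatives used DESeq2 1.42.0, limma 3.58.1 (voom), 2 other scalings, 2 other filters, exclusion of mitochondrial and small structural RNA genes, a stricter threshold (0.01), a block on replicate number and leaving out each library; the count of members with a lower mean was added to these after seeing the data. Libraries within a group differed by more than counting error (chi-square of 18.7 to 175 for each degree of freedom).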

Additional observations from a re-analysis of the deposited data

How the results depend on the processing

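In all fits run, 0 of the 40 genes passed an adjusted p of 0.05. Over all genes edgeR and limma-voom called 0 (1396 and 1297 at an unadjusted p under 0.05), edgeR called 0 at a threshold of 0.01, and DESeq2 called 100, 52 higher and 48 lower; the cause was not tested. With all 6 libraries the median log2 fold change of the 40 genes lay between -0.25 and -0.17 under every other test, scaling and filter, and 38 genes were lower in each. Single libraries moved it: leaving out 1 library gave medians from -0.49 (without mutant 3) to 0.0074 (without mutant 1) for the 40 genes, -0.44 to -0.0022 for small subunit, -0.46 to 0.059 for large subunit and -0.59 to -0.065 for snoRNP genes. The number of the 40 with a lower mean ran from 19 without mutant 1 to 40 without mutant 3, and was 32 without control 2 (47.9% of all genes). Without mutant 3 the smallest adjusted p of the 40 in edgeR was 0.320.

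Of 17 genes followed singly, Myc included, the direction was reversed in 5 of 238 repeats, all when 1 library was left out. The log2 fold changes then ran from -0.37 to 0.12 for Polr1a, -0.71 to 0.0065 for Polr1b, -0.11 to 0.33 for Wdr12 and -0.20 to 0.14 for Nob1. Most of these 17 genes had been taken for the smallest p of their class, so they do not stand for all 40. Over the 40 genes, 38 were lower with all 6 libraries and 19 without mutant 1. The labels do not state that the numbers 1 to 3 pair the samples. Deviations of same-numbered libraries from their group means correlated at -0.048, -0.067 and -0.028. Those of libraries with different numbers correlated at -0.0052 to 0.073. With 3 libraries per group these values cannot decide whether the samples were paired. With the replicate block the median of the 40 genes was -0.25, and 0 of them and 0 of all genes passed (991 at an unadjusted p under 0.05). Each of the 40 genes had at least 580 counts in every library. What limited these comparisons was not tested.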
